A study of Mus musculus with 13 samples.

Results

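Small nucleolar RNAs (snoRNAs) were followed in mouse hippocampus on whole-transcript arrays that also carry probe sets for many short nuclear RNAs. Members were all genes whose array symbol starts with Snord or Snora, read from probe sets that name exactly 1 gene, with the probe set of highest mean over the 13 arrays kept for each gene. This gave 51 snoRNAs among 19938 genes: 31 of the box C/D class (Snord) and 20 of the box H/ACA class (Snora). They came from 56 probe sets, since 5 snoRNAs had a second one. Another 41 probe sets hold a snoRNA name among several gene names and fall outside the rule. Of these, 24 name Snord116l1 and Snord116l2, so no snoRNA of the large imprinted neuronal clusters is among the members.

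SnoRNAs work as guides in the nucleolus, where ribosomal RNA is made and trimmed. A box C/D snoRNA pairs with ribosomal RNA and brings the methyltransferase fibrillarin (Fbl) to 1 nucleotide, while a box H/ACA snoRNA brings the pseudouridine synthase dyskerin (Dkc1). A few, among them the U3, U8 (Snord118), U14 (Snord14) and U17 (Snora73) families, are needed for cutting the ribosomal RNA precursor. In mammals most are cut out of introns of a longer gene, often one for a ribosomal protein or a noncoding gene that does little else, and an intron generally yields 1 snoRNA, which is then bound by its core proteins.

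All mice were C57BL/6J, 1 to 2 months old, and fed standard chow. Wild-type mice were compared with Kmt2d+/BGeo mice, a model of Kabuki syndrome that keeps 1 intact copy of Kmt2d, the gene of a histone H3 lysine methyltransferase. Experiment 1 held 4 wild-type and 3 heterozygous samples from mice without injections, with RNA from the Qiagen RNeasy kit. Experiment 2 held 3 of each genotype under 3 saline injections a day, with RNA from TRIzol and a spin-column cleanup. The labels give the sex as female, apart from 1 wild-type sample of experiment 1 (replicate 3), where it is given as unknown. Injection and RNA extraction both differ between the experiments, so they cannot be told apart in any difference between them; only genotype can be compared within an experiment. The labels used here do not say whether both experiments shared an array run.

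Values are log2 intensities, and the median over all probe sets was 6.74 to 6.90 on the arrays of experiment 1 and 7.04 to 7.08 on those of experiment 2. One Kmt2d probe set read 7.87 to 7.90 in wild-type and 7.17 to 7.47 in heterozygous mice of experiment 1, and 8.32 to 8.76 against 7.88 to 8.18 in experiment 2. A second one did not show the lower heterozygous values: it read 9.82 to 9.83 in wild-type and 9.84 to 9.95 in heterozygous mice of experiment 1, and 9.46 to 9.82 against 9.49 to 9.80 in experiment 2. Neither is known here to lie in the altered part of the allele. All 8 hippocampal neuron markers were measured, with a mean of 9.89 to 10.39 over the arrays of experiment 1 and 9.49 to 9.76 in experiment 2. The mean of 3 striatal markers was 11.1 on wild-type replicate 2 of experiment 1 and 7.75 to 8.20 on the other arrays. Other marker means also moved with the experiment. They went from 12.93 to 12.99 down to 12.37 to 12.48 for neurons, from 9.73 to 10.09 down to 8.77 to 9.07 for astrocytes, from 10.86 to 11.33 down to 9.85 to 10.5 for oligodendrocytes and from 8.84 to 9.04 down to 8.54 to 8.74 for microglia. Choroid plexus markers (8.72 to 10.12 and 7.38 to 9.12) and endothelial markers (8.91 to 9.17 and 8.87 to 9.30) overlapped between the experiments. The part of cell makeup in the snoRNA values was not tested.

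The deposited values carry no detection call. As a rough mark of background, 2 liver genes that brain lacks averaged 6.03 to 6.23 on the arrays of experiment 1 and 6.55 to 6.84 on those of experiment 2. The levels of these 2 genes ran from 4.83 to 8.20, so their average is a loose mark and not a floor. By this mark, chosen after the values were seen, 13 box C/D and 4 box H/ACA snoRNAs read below it on every array: Snord15a, Snord22, Snord37, Snord38a, Snord52, Snord53, Snord58b, Snord61, Snord73a, Snord85, Snord87, Snord96a and Snord118, and Snora2b, Snora20, Snora41 and Snora75. Snord42a did so on all arrays of experiment 1 alone, and Snord33, Snord49a, Snord57, Snord73b, Snord82, Snora21 and Snora69 on all arrays of experiment 2 alone. These values are not shown to be above background, so a difference against them may understate the change, and a flat one does not show that the RNA did not change. The mark itself read higher in experiment 2, so a rise among members below it may also overstate the change. For members below it on every array, the part of background in a difference was not tested. Such members could still differ under the mark: Snord87 read 5.24 to 5.55 in experiment 1 and 3.83 to 4.07 in experiment 2.

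The snoRNAs differed widely between the experiments, in both directions, with the same sign in both genotypes for nearly all of them, as for most of all genes. In wild-type mice 12 of 31 box C/D snoRNAs rose and 11 fell from experiment 1 to experiment 2, by limma at a Benjamini-Hochberg adjusted p of 0.05, with a median difference of -0.08 on the log2 scale. Of 20 box H/ACA snoRNAs, 4 rose and 11 fell, with a median of -0.40. For comparison, 37.3% of all genes rose and 32% fell, with a median of 0.08. In heterozygous mice 12 box C/D snoRNAs rose and 14 fell (median -0.14), and 4 box H/ACA snoRNAs rose and 10 fell (median -0.33), where 31% of all genes rose and 31.3% fell (median 0.05). Over both classes, 15 of 51 snoRNAs were called higher and 20 called lower in both genotypes at once, where 27.8% and 28.4% of all genes were. In wild-type mice the shares of box C/D snoRNAs called are close to those of all genes, so these counts by themselves set the class apart in neither direction. In whole tissue, fewer cells that hold a snoRNA and less of it per cell cannot be told apart.

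The size of the differences was less usual when set against all genes. In wild-type mice 5 box C/D and 1 box H/ACA snoRNAs were called and over 2-fold higher, and 7 and 7 were over 2-fold lower, where 2.81% of all genes passed the same marks upward and 10.2% downward. In heterozygous mice 5 and 1 were over 2-fold higher and 7 and 8 over 2-fold lower, against 2.34% and 8.86% of all genes. In both genotypes at once 19 of 51 snoRNAs (37.3%) were called and over 2-fold different in the same direction, against 9.9% of all genes. Such sizes were not particular to snoRNAs. In wild-type mice alone 39.2% of snoRNAs passed these marks in either direction, as did 42.9% of 28 listed genes known to hold snoRNAs. The share was 41.7% of 12 snoRNA assembly factors, 22% of 296 microRNA hairpins and 2 of 3 Scarna RNAs. Among 30 proteins of ribosomal RNA transcription and processing it was 6.67%, with 0 of 5 U-type small nuclear RNAs. Past 8-fold, a mark chosen after the values were seen, there were 20 genes in both genotypes, and 6 of them were snoRNAs: Snord57, Snord82, Snord73b, Snora52 and Snora16a lower, Snord42a higher. The counts of called rises and falls given first depended on the array scaling, which also shifted the median of all genes: to -0.16 (wild type) and -0.20 (heterozygous) when arrays were centred on their medians, and to -0.03 and -0.08 under quantile normalisation. With centred arrays 7 box C/D snoRNAs rose and 15 fell and 3 box H/ACA snoRNAs rose and 14 fell in wild-type mice (7 and 16, 3 and 11 in heterozygous mice). Of all 19938 genes, 3415 then rose and 8654 fell in wild-type mice, and 2395 and 8837 in heterozygous mice. Under quantile normalisation the snoRNA counts were 8 and 13, 2 and 13 (8 and 16, 3 and 11). Of all genes, 4655 then rose and 6387 fell in wild-type mice, and 3570 and 6260 in heterozygous mice.

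**Figure D1:**
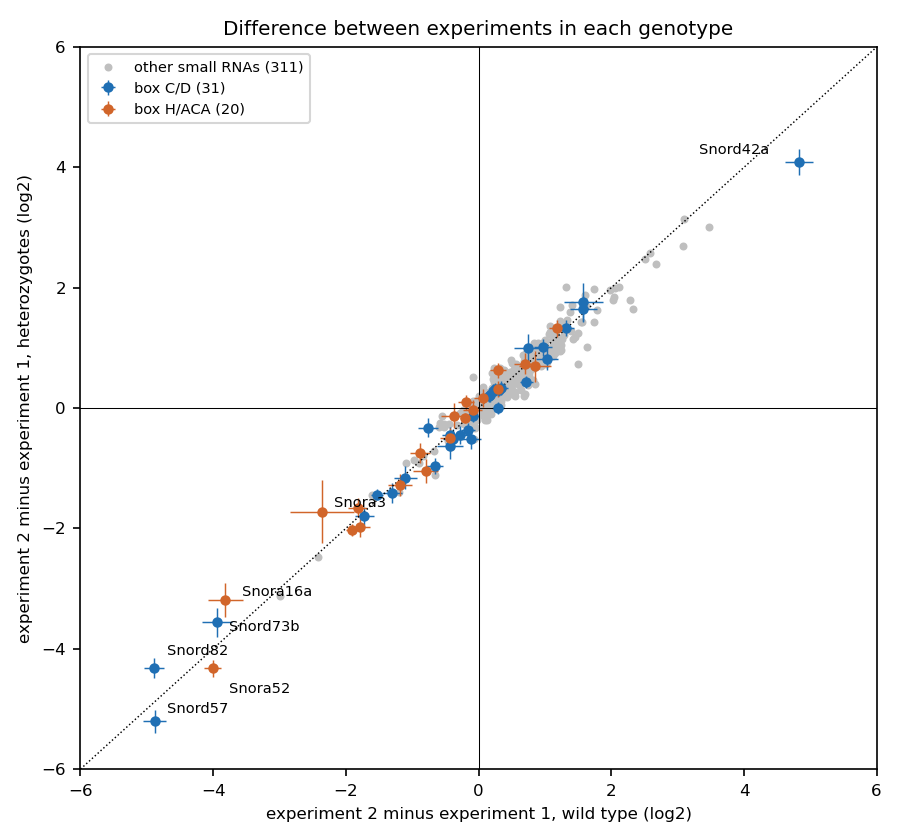
Each point is 1 gene: the log2 difference of experiment 2 minus experiment 1 in wild-type mice (x) and in heterozygous mice (y), with its SE as bars for the 31 box C/D (blue) and 20 box H/ACA (orange) snoRNAs. Other small RNAs (grey) are microRNA hairpins, Scarna, U, Y and further named RNAs; the dotted line marks equal differences, and the snoRNAs lie along it from Snord57 at -4.88 and -5.21 to Snord42a at 4.83 and 4.09.

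Among box C/D snoRNAs, Snord57, which guides methylation of small-subunit ribosomal RNA, fell in wild-type mice (-4.88 ± 0.18 on the log2 scale, estimate ± SE) and in heterozygous mice (-5.21 ± 0.19), with adjusted p = 1.2e-11 and 2.34e-11. It read 10.11, 10.52, 10.59 and 10.20 in the wild-type mice of experiment 1 and 10.68, 10.28 and 10.89 in the heterozygous ones. In experiment 2 the wild-type values were 5.67, 5.07 and 5.67, and the heterozygous values 5.67, 5.24 and 5.33. Every array of experiment 1 lay far above every array of experiment 2, and the genotypes overlapped within each.

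Snord82, another guide of small-subunit methylation, read 9.15, 9.66, 9.26 and 9.38 (wild type) and 9.33, 9.05 and 9.48 (heterozygous) in experiment 1. It read 4.28, 4.37 and 4.76, and 4.71, 5.04 and 5.16, in experiment 2. The log2 difference was -4.89 ± 0.15 in wild-type mice and -4.32 ± 0.16 in heterozygous mice, with adjusted p = 2.86e-12 and 3.11e-11. As for Snord57, no array of one experiment reached the range of the other.

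Snord73b, a guide to the large-subunit ribosomal RNA, read 7.60 to 8.07 on the 7 arrays of experiment 1. In experiment 2 it read 3.85, 4.02 and 3.90 in wild-type and 3.77, 3.91 and 5.06 in heterozygous mice, a fall with log2 differences of -3.94 ± 0.23 and -3.56 ± 0.24 (adjusted p = 1.1e-09 and 1.04e-08). Heterozygous replicate 3 stood above the other arrays of its experiment, and without it the heterozygous difference was -3.97. The other box C/D snoRNAs over 2-fold lower in both genotypes fell less: Snord49b (-1.73 and -1.79), Snord87 (-1.53 and -1.44), Snord104 (-1.31 and -1.41) and Snord35b (-1.1 and -1.16), each in wild-type and heterozygous mice. Snord49b, for example, read 9.82 to 10.18 in experiment 1 and 7.91 to 8.59 in experiment 2, with no overlap.

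Snord42a, a small-subunit guide, moved the other way and further than any other member that rose. It read 5.78, 5.96, 5.77 and 5.50 in wild-type and 5.88, 5.59 and 5.84 in heterozygous mice of experiment 1. In experiment 2 the wild-type mice had 10.62, 10.63 and 10.50 and the heterozygous mice 10.20, 10.26 and 9.11. The rise of 4.83 ± 0.21 in wild-type mice (adjusted p = 6.59e-11) and 4.09 ± 0.22 in heterozygous mice (adjusted p = 1.1e-09) left every array of experiment 2 above every array of experiment 1.

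The other box C/D snoRNAs over 2-fold higher in both genotypes were Snord14e, Snord61 and Snord8. Snord14e, of the U14 family that takes part in small-subunit processing, read 7.83, 8.37, 6.57 and 7.0 in the wild-type mice of experiment 1 and 7.48 to 7.80 in the heterozygous ones, then 8.84 to 9.13 and 9.24 to 9.60. Its rise of 1.58 ± 0.29 and 1.77 ± 0.32 (adjusted p = 2.27e-04 and 1.91e-04) came with the widest spread of any box C/D member in 1 group, an SD of 0.81 in the wild-type mice of experiment 1. Snord61 rose by 1.58 ± 0.20 and 1.65 ± 0.22, from 3.97 to 4.68 over the arrays of experiment 1 to 5.54 to 6.49 in experiment 2. On every array it read under the rough background mark, which was itself higher in experiment 2. Snord8, which guides a methylation of the U6 spliceosomal RNA rather than of ribosomal RNA, rose by 1.31 ± 0.12 and 1.33 ± 0.13, from 6.71 to 7.18 to 7.97 to 8.35.

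**Figure D2:**
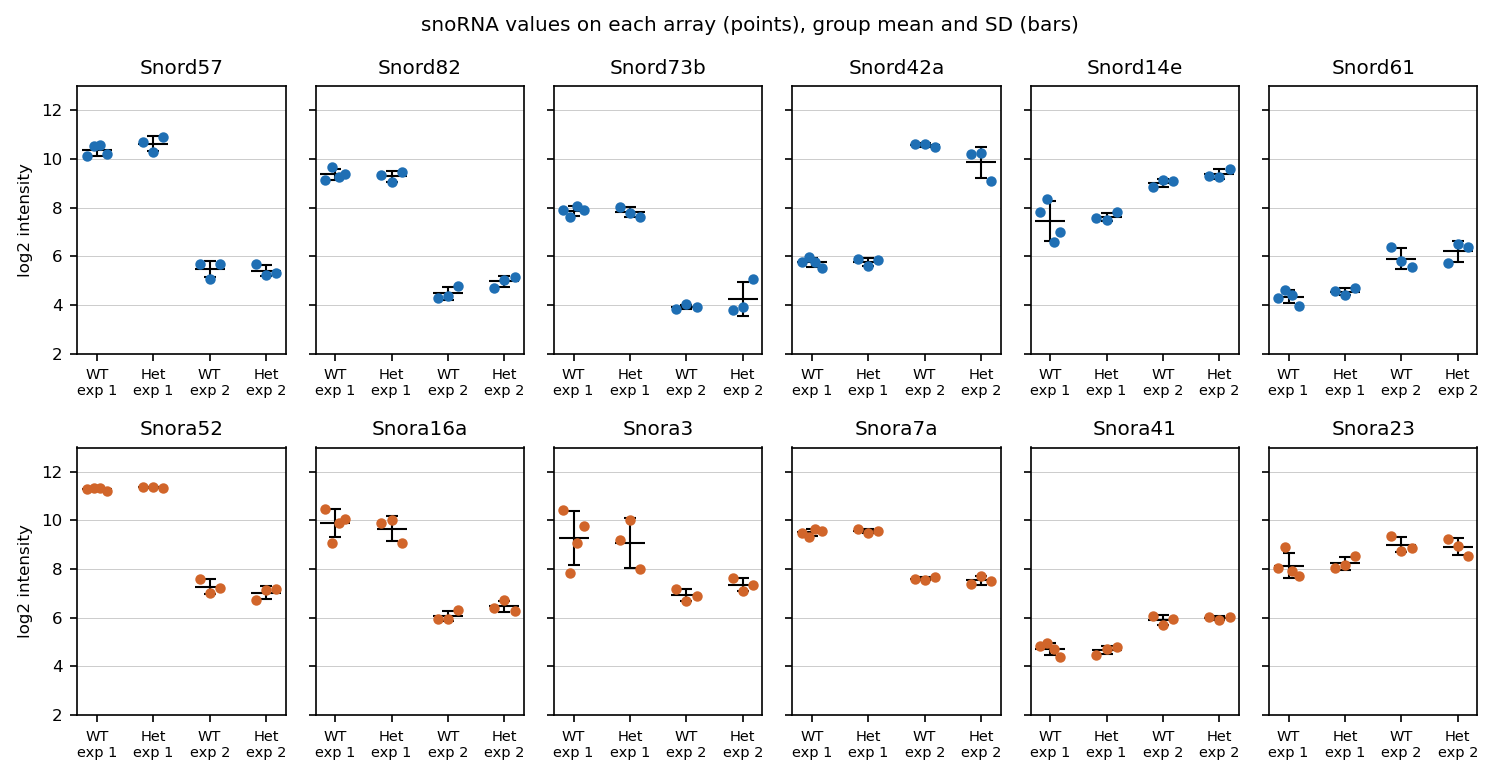
Log2 intensity (y) of 12 snoRNAs on each of the 13 arrays, by group (x: wild type or heterozygous, experiment 1 or 2); points are arrays and black bars give the group mean and SD. The upper row shows box C/D snoRNAs (blue), the lower row box H/ACA snoRNAs (orange). Snord57 lies at 10.11 to 10.89 in experiment 1 and 5.07 to 5.67 in experiment 2, while Snord42a goes from 5.50 to 5.96 up to 9.11 to 10.63.

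Smaller rises in both genotypes were called for Snord16a (0.97 and 1.01), Snord95 (1.03 and 0.81), Snord38a (0.74 and 1.00), Snord55 (0.72 and 0.44), Snord58b (0.31 and 0.30), Snord118 (0.25 and 0.31) and Snord96a (0.33 and 0.34), although the sign turned under quantile normalisation for Snord118 in wild-type mice (-0.03) and for Snord96a in both genotypes (-0.03 and -0.03). Snord118 is U8, which is needed for maturation of the large-subunit RNAs and has its own promoter. Snord38a, Snord58b, Snord96a and Snord118 read under the rough background mark on every array. Smaller falls in both genotypes were called for Snord49a (-0.66 and -0.96), Snord42b (-0.43 and -0.45) and Snord85 (-0.39 and -0.51). Snord47 fell (-0.76) in wild-type mice and read -0.33 without a call in heterozygous mice, and Snord22 (U22) was called higher in wild-type mice (0.29, but -0.07 under quantile normalisation) and stood at 0.00 in heterozygous mice. Snord15b (-0.36), Snord33 (-0.64), Snord35a (-0.44), Snord37 (-0.51) and Snord73a (0.28, but -0.04 under quantile normalisation) were called in heterozygous mice alone. A call in 1 genotype is not a difference between them, and the test of that difference called no snoRNA, as given further on with the genotype results. Snord15a, Snord52 and Snord53 were called in neither.

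More box H/ACA snoRNAs fell than rose in both genotypes. Snora52, a guide of pseudouridine in the large-subunit RNA, read 11.30, 11.32, 11.34 and 11.20 in wild-type and 11.37, 11.38 and 11.33 in heterozygous mice of experiment 1. Experiment 2 gave 7.61, 7.01 and 7.24, and 6.73, 7.16 and 7.20. The fall (-4.01 ± 0.13 and -4.33 ± 0.14, adjusted p = 5.07e-12 and 6.68e-12) separated the experiments fully, and the 7 arrays of experiment 1 lay between 11.20 and 11.38.

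Snora16a read 10.48, 9.09, 9.91 and 10.05 in wild-type and 9.90, 10.01 and 9.06 in heterozygous mice of experiment 1, and 5.95, 5.94 and 6.31, and 6.4, 6.73 and 6.27, in experiment 2. It fell, with log2 differences of -3.82 ± 0.27 and -3.19 ± 0.29 (adjusted p = 8.92e-09 and 1.83e-07). All arrays of experiment 2 lay below all of experiment 1, where wild-type replicate 2 and heterozygous replicate 3 were the lowest.

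Snora3 had the same pattern with a wider spread: 10.42, 7.85, 9.08 and 9.79 in wild-type and 9.19, 10.03 and 8.0 in heterozygous mice of experiment 1, against 7.19, 6.70 and 6.88, and 7.63, 7.09 and 7.33, in experiment 2. Its fall was -2.36 ± 0.48 and -1.72 ± 0.52 on the log2 scale (adjusted p = 5.02e-04 and 0.00943). Without heterozygous replicate 2 of experiment 1 the heterozygous call was lost (-1.24, adjusted p = 0.0569), and without wild-type replicate 2 and heterozygous replicate 3 together, a choice made after seeing them, the differences were -2.84 and -2.26. A second Snora3 probe set gave -2.33 and -1.81.

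Snora7a, a guide to the large-subunit RNA, fell (-1.91 ± 0.10 and -2.03 ± 0.10), from 9.32 to 9.66 on the arrays of experiment 1 to 7.37 to 7.70. Snora73a and Snora73b, the U17 snoRNAs that act in cutting the small-subunit precursor rather than in modifying it, fell too (-1.82 and -1.66, -1.79 and -1.97). Smaller falls were called for Snora21 (-1.19 and -1.28), Snora74a (-0.88 and -0.74), Snora44 (-0.80 and -1.05) and Snora20 (-0.43 and -0.50). A second Snora21 probe set gave -0.81 and -0.92, short of the 2-fold mark. Snora2b was called in wild-type mice (-0.20) and not in heterozygous mice (-0.16).

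Against this direction 4 box H/ACA snoRNAs rose in both genotypes. Snora41 read 4.38 to 4.95 in experiment 1 and 5.69 to 6.09 in experiment 2, a rise of 1.19 ± 0.13 and 1.33 ± 0.14 (adjusted p = 1.23e-06 and 1.03e-06), with no overlap. All these Snora41 values lay under the rough background mark, which was itself higher in experiment 2. Snora23 rose by 0.85 ± 0.24 and 0.69 ± 0.25, but wild-type replicate 2 of experiment 1 (8.89) lay within the range of experiment 2 (8.55 to 9.35). Snora33 rose by 0.70 and 0.74, and Snora30 by 0.29 and 0.63, although Snora30 read -0.01 in wild-type mice under quantile normalisation. Snora31 (-0.37 and -0.13), Snora62 (0.29 and 0.32), Snora69 (-0.19 and 0.09), Snora70 (0.06 and 0.17) and Snora75 (-0.09 and -0.03) were called in neither genotype.

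For 49 of the 51 snoRNAs the difference between experiments had the same sign in both genotypes, and none was called in opposite directions. Among all 19938 genes, 18210 had the same sign and 3 were called in opposite directions, so this agreement does not set snoRNAs apart. The genotypes are separate mice, but they share the extraction and the injections of their experiment. Of the calls between experiments, 11 of 38 in wild-type mice and 15 of 40 in heterozygous mice were lost or turned in at least 1 alternative analysis. In wild-type mice these were Snora2b, Snora20, Snora30, Snora33, Snord22, Snord38a, Snord42b, Snord58b, Snord85, Snord96a and Snord118. In heterozygous mice they were Snora3, Snora20, Snora23, Snora33, Snord15b, Snord33, Snord35a, Snord37, Snord42b, Snord55, Snord58b, Snord73a, Snord85, Snord96a and Snord118.

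Length did not order the box C/D differences, while longer box H/ACA snoRNAs tended to read lower in experiment 2. In the RefSeq table (GRCm38.p6) the box C/D members are 45 to 148 bases long (median 68) and the box H/ACA members 61 to 205 (median 125). Spearman's rho of length with the difference between experiments was 0.07 and 0.08 for 31 box C/D snoRNAs and -0.44 and -0.46 for 20 box H/ACA snoRNAs, in wild-type and heterozygous mice. These are descriptions across genes that share their arrays. The 4 box H/ACA snoRNAs under the rough background mark on every array are 61 to 116 bases long, below the median of their class. Length and level were not separated. Snord57 (63 bases) and Snord42a (45 bases), with large differences of opposite sign, are both short.

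Other short RNAs did not share 1 direction with the snoRNAs. The Cajal body RNAs Scarna13 and Scarna17, which guide modification of spliceosomal RNAs, fell (-1.60 and -1.44, -2.42 and -2.47), while Scarna8 was called in wild-type mice only (0.28 and 0.26). Rmrp, the RNA of the enzyme that cuts the ribosomal RNA precursor, fell (-2.99 ± 0.09 and -3.12 ± 0.10), yet Rpph1, the RNA of the related RNase P, rose by 0.78 and 0.63. The Y RNA Rny1 rose by 3.47 ± 0.20 and 3.00 ± 0.21, and Rny3 was not called. The telomerase RNA Terc, itself of the H/ACA type, fell (-0.66 and -1.11). Of 296 microRNA hairpins, 183 rose and 11 fell in wild-type mice and 167 rose and 10 fell in heterozygous mice. Their medians were 0.44 and 0.40, where 37.3% and 31% of all genes rose and 32% and 31.3% fell. The hairpins were led by Mir690 (3.09 and 3.15) and Mir665 (3.08 and 2.69). Among all genes the direction depended on level. The all-gene median was 0.08 in wild-type and 0.05 in heterozygous mice. Without genes under the median of all gene means it was -0.31 and -0.32. The hairpins were not compared with genes of similar level, so the part of this shift in their rises was not tested. Of 5 U-type small nuclear RNAs, limma called 0 in wild-type mice (-0.24 to 0.23) and 1 in heterozygous mice, Rnu7 of histone mRNA processing, which rose by 0.66.

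SnoRNAs that lie inside the same gene differed between the experiments by unequal amounts in most pairs. By RefSeq's gene bounds, with strand not considered, 50 of the 51 lie inside another gene, all but Snord118, and 10 genes each hold a pair of members. The difference between experiments was unequal within 7 of the 10 pairs, by exact permutation with adjusted p under 0.05 over the 10. No share over other gene pairs was computed beside this count, and these pairs were chosen after their values were seen. Of all genes 69.3% were called between the experiments in wild-type and 62.3% in heterozygous mice, so the count does not set same-gene snoRNAs apart. One pair was called in opposite directions: in the ribosomal protein gene Rpl23a, Snord42a rose by 4.83 and 4.09 while Snord42b fell (-0.43 and -0.45; adjusted permutation p = 0.00238). In Rps3a1, Snord73b fell (-3.94 and -3.56) while Snord73a read 0.22 and 0.28, with no call in wild-type mice. In Ncl, the gene of nucleolin, Snord82 fell (-4.89 and -4.32) and Snora75 stood at -0.09 and -0.03. Snord73a (4.65 to 5.25) and Snora75 (4.67 to 5.33) read low on all arrays, under the rough background mark. Their nearly flat values therefore do not show that these 2 RNAs did not change. Snord73b and Snord82 read under the mark on all arrays of experiment 2.

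Within Snhg12, a noncoding gene known for its snoRNAs, Snora16a fell (-3.82 and -3.19) much more than Snora44 (-0.80 and -1.05; adjusted permutation p = 0.00238). Snord49a and Snord49b in 2410006H16Rik, Snord95 and Snord96a in Rack1, and Snord15a and Snord15b in Rps3 also differed from each other, by 0.96, 0.59 and 0.44 on the log2 scale (adjusted permutation p = 0.00238, 0.00612 and 0.00238). Snord15a and Snord96a read under the rough background mark on every array, and Snord49a on all arrays of experiment 2. The size of these gaps is therefore uncertain. No difference passed for Snord33 and Snord35a in Rpl13a (-0.17, adjusted permutation p = 0.414) or Snora73a and Snora73b in Snhg3 (0.13, 0.352).

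The change of a snoRNA was rarely the size of that of the gene that contains it. For 29 members the containing gene was measured too, over 25 genes, among them genes for ribosomal proteins and translation factors. Of these 25, 15 were called higher and 9 lower in both genotypes, against 27.8% and 28.4% of all genes. The change of the snoRNA differed from that of its containing gene in 27 of 29 pairs (exact permutation, adjusted p under 0.05 over the 29), and in 10 pairs both were called in opposite directions in both genotypes. In 8 pairs both were called the same way in both genotypes. No share over other gene pairs was computed beside these counts. Between the experiments 69.3% of all genes were called in wild-type and 62.3% in heterozygous mice. Of the 29, Snora2b, Snora20, Snora41, Snora75, Snord15a, Snord37, Snord53, Snord61, Snord73a and Snord87 read under the rough background mark on every array. Whether these followed the containing gene cannot be read from such values. Over the 29 pairs Pearson's r was -0.07 in wild-type and -0.04 in heterozygous mice, a description across pairs that share arrays and in part a gene.

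Rps3a1, for example, read 7.93 to 8.27 in experiment 1 and 11.14 to 11.67 in experiment 2, a rise of 3.29 ± 0.11 and 3.33 ± 0.11, while Snord73b, which lies inside it, fell from 7.60 to 8.07 to 3.77 to 5.06. Rplp2 rose by 1.23 and 0.92 as Snora52 fell (-4.01 and -4.33). Rpl27a rose by 0.58 and 0.50 as Snora3 fell (-2.36 and -1.72). The reverse was seen for Ipo7, which encodes an import receptor: it fell (-2.40 and -1.89) while Snora23 rose by 0.85 and 0.69, and Hspa8 fell (-0.79 and -0.87) while Snord14e rose by 1.58 and 1.77.

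Snord42a rose with its containing gene Rpl23a (1.04 and 0.98), and Snord16a, Snord61, Snora33 and Snora41 likewise moved the same way as Rpl4, Rbmx, Rps12 and Eef1b2. Snora20 fell, as did Tcp1 (-1.51 and -1.39). Snord61, Snora41 and Snora20 read under the rough background mark on every array, so whether they followed the containing gene cannot be read from these values. The remaining opposite pairs were Snora21 in Rpl23, Snora30 in Srcap (for wild-type Snora30 the sign depended on the scaling, as given above), Snord42b in Rpl23a, Snord8 in Chd8 (also inside Gm26590) and Snord87 in Mcmdc2 (also inside Snhg6), where the second gene of each was not measured. Snord87 too read under the rough background mark on every array. Snord57 and its containing gene Nop56, whose protein binds box C/D snoRNAs, both fell (-4.88 and -5.21 against -0.57 and -0.57). Snord82 and Ncl both fell too, Ncl with differences of -0.28 and -0.21. Gas5, a noncoding gene with several snoRNAs in its introns, rose by 2.60 and 2.61 while Snord47 read -0.76 and -0.33. The annotation used gives no probe positions or introns, so whether a probe set of a containing gene also reads the unspliced precursor was not tested.

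**Figure D3:**
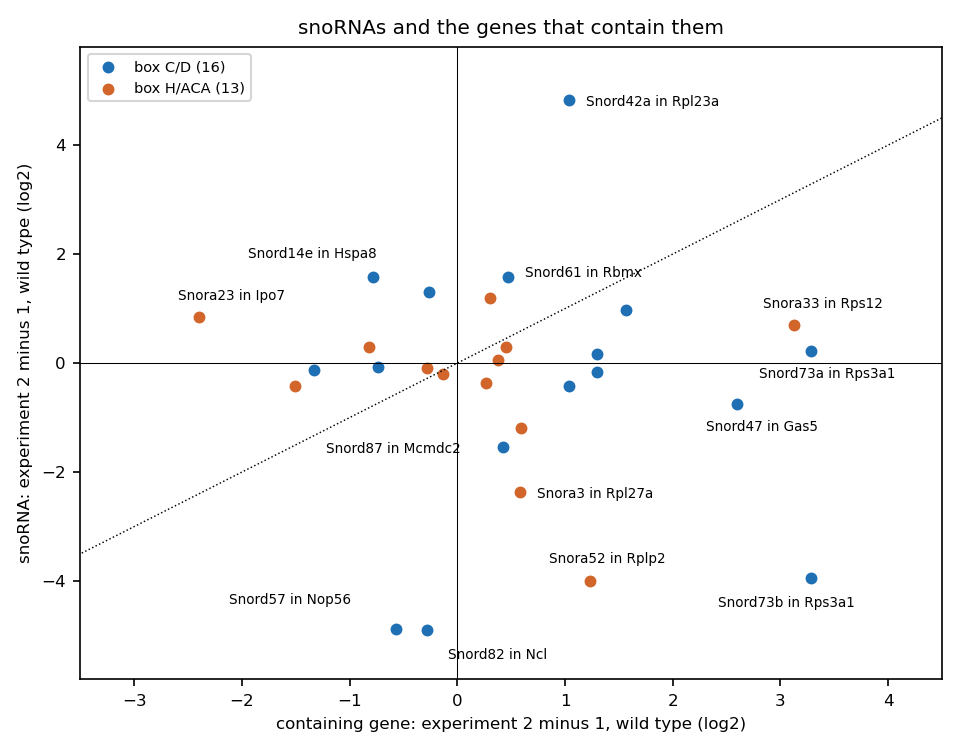
Log2 difference of experiment 2 minus experiment 1 in wild-type mice for 29 snoRNAs (y) against the gene that contains each (x); blue points are box C/D (16), orange points box H/ACA (13), and the dotted line marks equal differences. Points do not follow the line: Rps3a1 is at 3.29 with Snord73a at 0.22 and Snord73b at -3.94.

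The proteins that snoRNAs work with did not move as 1 group. Of the 4 box C/D core proteins, Fbl rose by 1.29 ± 0.09 and 1.32 ± 0.09, Nop56 fell (-0.57 and -0.57), Snu13, which binds the C/D motif first, fell (-1.25 ± 0.10 and -1.28 ± 0.10), and Nop58 was not called (0.00 and -0.04). Of the 4 box H/ACA core proteins, Dkc1 fell (-0.85 and -0.80), whereas its partners Nop10 (0.64 and 0.49), Nhp2 (0.55 and 0.71) and Gar1 (0.34 and 0.52) rose. Among 12 assembly factors 3 rose and 5 fell in wild-type mice, and 3 rose and 4 fell in heterozygous mice, where the all-gene shares are 37.3% and 32%, and 31% and 31.3%. Naf1, which loads dyskerin onto new H/ACA RNAs, fell (-1.95 and -1.92), as did Nufip1 (-1.09 and -1.26) and the cap methylase Tgs1 (-1.04 and -1.09), while Znhit3 (1.53 and 1.25) and Pih1d1 (1.49 and 1.01) rose. Of 30 proteins of ribosomal RNA transcription and processing, 12 rose and 11 fell in wild-type mice and 10 rose and 13 fell in heterozygous mice, beside the same all-gene shares.

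No snoRNA was called between the genotypes. Over both experiments limma called 0 of 51 members and 0 had an unadjusted p under 0.05, where 0% of all genes were called and 5.25% had such a p. The median difference, heterozygous minus wild type, was 0.05 for box C/D and 0.01 for box H/ACA snoRNAs, with a range from -0.33 to 0.26 over all members. Snord42a had the smallest p, at -0.33 ± 0.17 (p = 0.0747, adjusted p = 0.934, exact permutation p = 0.109), followed in its class by Snord61 (0.25 ± 0.15), Snord55 (-0.13 ± 0.08), Snord53 (0.10 ± 0.06) and Snord15b (0.12 ± 0.08). For box H/ACA these were Snora62 (0.14 ± 0.09), Snora70 (0.14 ± 0.10), Snora74a (0.11 ± 0.11), Snora33 (0.12 ± 0.12) and Snora30 (0.08 ± 0.09). The SE ranged from 0.06 for Snora2b to 0.35 for Snora3, so differences of very unequal size could have been seen.

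Within experiment 1 limma called 0 members, where 0.0201% of all genes (4) were called, and 0 members had an unadjusted p under 0.05. Snord15b (0.22 ± 0.11) and Snord37 (0.30 ± 0.16) came closest among box C/D, and Snora69 (-0.14 ± 0.12) and Snora62 (0.13 ± 0.13) among box H/ACA, each with an adjusted p of 1 by limma. In none of the 51 did the 4 wild-type and 3 heterozygous values separate, against 7.22% of all genes.

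In experiment 2 limma again called 0 members, and 0% of all genes, but 5 box C/D snoRNAs and 0 box H/ACA snoRNAs had an unadjusted p under 0.05, with 10.2% of all genes. They were Snord42a (-0.73 ± 0.22, adjusted p = 0.35 by limma), Snord82 (0.50 ± 0.16), Snord55 (-0.28 ± 0.10), Snord22 (-0.26 ± 0.10) and Snord47 (0.36 ± 0.16). The values of 2 members did not overlap between the genotypes, Snord42a and Snord14e (0.36 ± 0.32), against 9.48% of all genes. The Snord42a difference rested in part on heterozygous replicate 3, at 9.11 beside 10.20 and 10.26; without that array it was -0.35. The same array held the highest Snord73b value of experiment 2.

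The genotype difference was itself compared between the experiments, and limma called 0 members and 0% of all genes; 3 members, Snord82, Snord42a and Snord22, had an unadjusted p under 0.05, with 6.53% of all genes. Snord82 differed by 0.57 ± 0.22 and Snord42a by -0.75 ± 0.30. Among the proteins listed above the smallest genotype p over both experiments belonged to Gar1 (0.17 ± 0.06, adjusted p = 0.795), which was not called either.

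**Figure D4:**
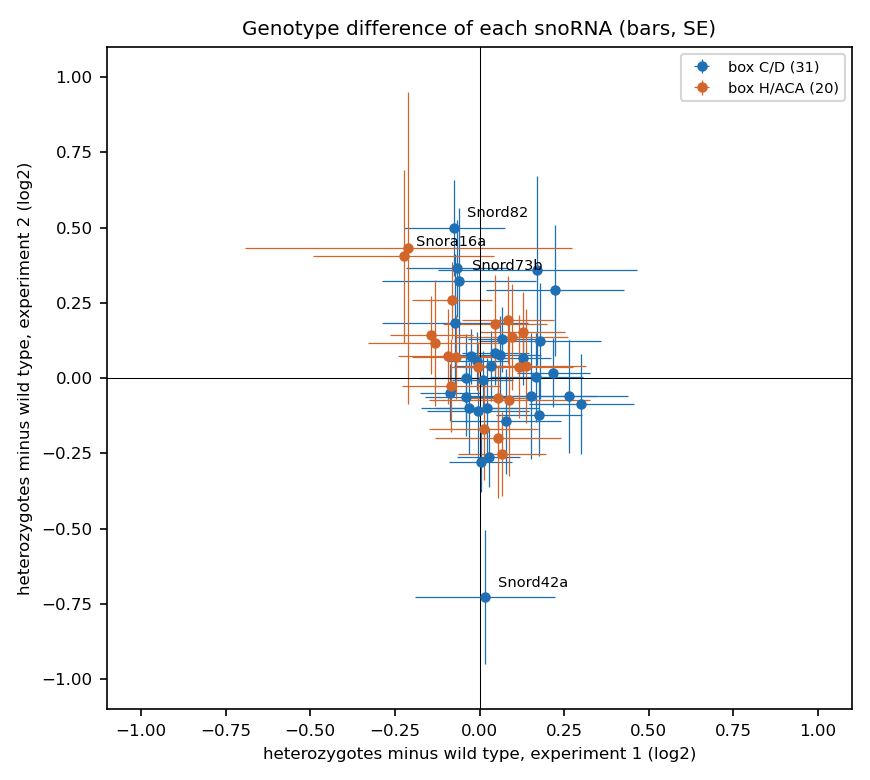
Log2 difference of heterozygous minus wild-type mice for each of 51 snoRNAs in experiment 1 (x) and experiment 2 (y), with SE as bars; blue points are box C/D, orange points box H/ACA. The points gather around 0 on both axes, and Snord42a lies apart at 0.02 in experiment 1 and -0.73 in experiment 2, where no snoRNA passed the adjusted threshold.

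In experiment 1, box H/ACA snoRNAs varied among samples of 1 group. In the wild-type mice of experiment 1 their median SD was 0.25 and that of box C/D snoRNAs 0.17, against 0.10 for all genes, and 3 of 20 (15%) had an SD over 0.5, against 0.948% of all genes. The largest were Snora3 (1.1), Snora16a (0.58) and Snora23 (0.51). In the heterozygous mice of experiment 1 it was 2 of 20 (10%, with 0.176% of all genes), and in experiment 2 it was 0 in both genotypes. Of the box C/D snoRNAs, 1 (3.23%) had such an SD in the wild-type mice of experiment 1, and 3 (9.68%, with 0.602% of all genes) in the heterozygous mice of experiment 2. Wild-type replicate 2 and heterozygous replicate 3 of experiment 1, picked out after their values were seen, were the 2 lowest of the 7 arrays for 9 of 20 box H/ACA snoRNAs (45%), 4 of 31 box C/D snoRNAs (12.9%) and 13.4% of all genes. The 9 were Snora3, Snora16a, Snora31, Snora33, Snora44, Snora70, Snora73a, Snora73b and Snora74a.

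For Snora44 those arrays read 8.39 and 8.78 beside 9.09 to 9.37, and for Snora31 7.0 and 7.32 beside 7.58 to 8.02. They were the 2 highest arrays for Snora20, Snora23, Snora30 and Snora75 (20%, against 7.38% of all genes), so the class did not shift as a whole. These 2 arrays also had the 2 highest probe-set medians of experiment 1, 6.90 and 6.86, and wild-type replicate 2 was the array with high striatal markers. The heterozygous samples of experiment 1, replicate 3 included, had striatal means of 7.99 to 8.11. The part of these features in the H/ACA values was not tested. One array belongs to each genotype, and with both left out limma still called 0 members for genotype.

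**Figure D5:**
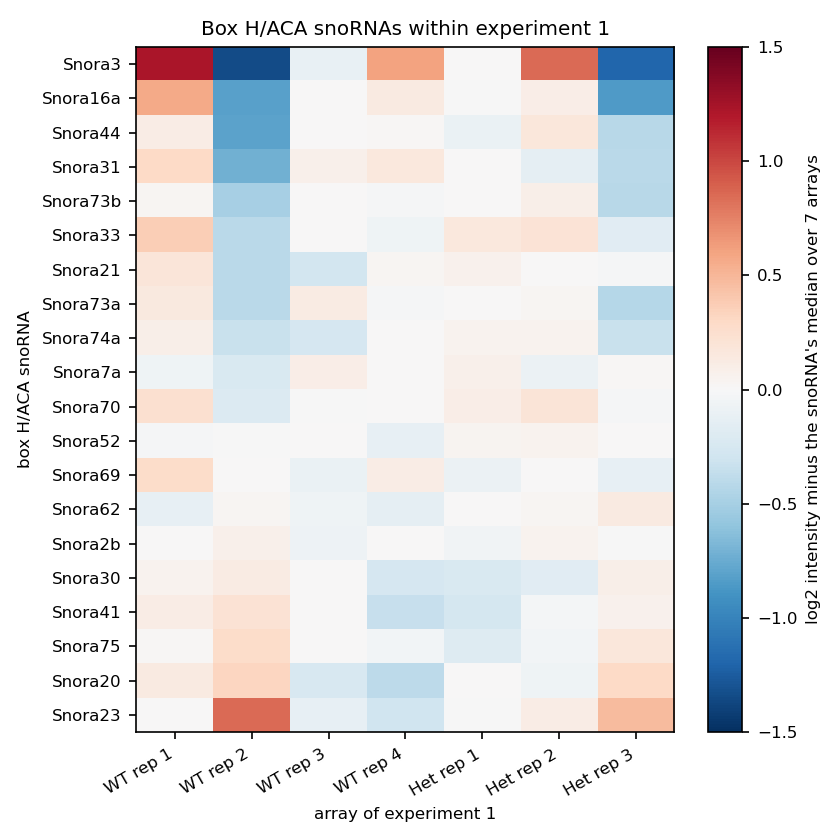
Deviation of each of the 20 box H/ACA snoRNAs (rows) from its own median over the 7 arrays of experiment 1 (columns), in log2 units from blue (lower) to red (higher). Wild-type replicate 2 and heterozygous replicate 3 are lowest for 9 snoRNAs, with Snora3 at -1.34 and -1.19, and highest for 4, with Snora23 at 0.85 and 0.48.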

How the data were processed

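The authors' deposited table holds log2 intensities of 35556 probe sets of the Affymetrix Mouse Gene 1.0 ST array in 13 hippocampus samples, for which the submitters' processing notes name RMA and oligo. Precision is set by the count of arrays, since arrays have no read depth. Platform annotation listed 23410 probe sets, 21789 of them with 1 symbol; those with several or none were not used. Values were used as deposited, with no filter. limma 3.58.1 (R 4.3.3; lmFit, eBayes) was fitted to 19938 genes, checked on simulated data. Genotype over both experiments had experiment as a term; all other comparisons used the means of the 4 groups. P-values were adjusted by Benjamini-Hochberg over all genes, with a threshold of 0.05. The labels do not say that each sample is a separate animal, so p-values measure the spread between these samples, which may be technical.

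Named genes were those highest and lowest by mean, of lowest p, or with the largest differences in each class and comparison, plus core proteins, assembly factors, containing genes and other small RNAs; the 8-fold mark, the 2 low H/ACA arrays and the same-gene pairs were chosen after their values were seen. Members and lists were chosen with earlier results of these data known. RefSeq (GRCm38.p6) gave lengths and containing genes for all 51 members; it was matched by symbol. No snoRNA sequence was used here. Alternatives changed scaling, filter, probe set choice, arrays and fit. The values of 1 same-gene pair are not reported here.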

Additional observations from a re-analysis of the deposited data

Results flagged for a closer look

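Among the 51 snoRNAs, 3 had 1 array far from the others in the only group of 4 arrays, the wild-type mice of experiment 1, judged by the gap to the nearest array as a share of the whole range against Dixon's critical value. Chance alone flags about 1 in 20 groups, and 51 were tested. In all 3 the array was wild-type replicate 2. Snora44 read 8.39 there, with the nearest array at 9.20. Snora73b read 8.93, with the nearest at 9.42. Snord95 read 7.22, the highest of its group, with the nearest at 6.68.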

How the results depend on the processing

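The zero count of genotype calls among snoRNAs held under all alternatives run. Of the calls between experiments, 27 of 38 in wild-type and 25 of 40 in heterozygous mice kept direction and call in every alternative that tested them; among those over 2-fold it was 20 of 20 and 20 of 21, the exception being Snora3. With 1 array left out, all counts stayed within 1.5 times and all medians within the replicate SD; the heterozygous C/D falls, for example, ranged from 10 to 15. Centring each array on its median gave, in wild-type mice, 7 box C/D rises and medians of -0.32 (C/D) and -0.64 (H/ACA), and in heterozygous mice 7 rises and medians of -0.39 and -0.58. Quantile normalisation left 2 H/ACA rises in wild-type mice and gave heterozygous medians of -0.36 and -0.55. It turned the sign of Snora30 (-0.011), Snord118 (-0.031), Snord22 (-0.071) and Snord96a (-0.027) in wild-type and of Snord73a (-0.036) and Snord96a (-0.032) in heterozygous mice. The counts and medians of all genes under centring and quantile normalisation, given in the Results, shifted too. Testing every probe set gave a C/D median of 0.16 in wild-type mice. Without the lowest 30% of genes by mean, fewer members were tested, 16 box C/D and 14 box H/ACA. C/D rises and falls were 6 and 7 (wild type) and 6 and 9 (heterozygous). The C/D medians were -0.35 and -0.40 and the H/ACA medians -0.84 and -0.90. Of all 13956 genes left, 3928 rose and 6208 fell in wild-type mice (median -0.14), and 3368 and 6110 in heterozygous mice (median -0.17). Without genes under the median of all gene means, 8 box C/D and 9 box H/ACA snoRNAs were tested. C/D rises and falls were 3 and 4, and 3 and 5, with 1 H/ACA rise in each genotype. The medians were -0.30 and -0.41 (C/D) and -1.82 and -1.72 (H/ACA). Of all 9969 genes left, 2018 rose and 5381 fell in wild-type mice (median -0.31), and 1696 and 5413 in heterozygous mice (median -0.32). Apart from the filters, the cause was not tested. Replicate numbers did not pair the samples (correlations of deviations from -0.23 to 0.22); with the replicate block 0 snoRNAs were called for genotype, and wild-type box C/D snoRNAs still had 12 rises and 11 falls.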
